A study of Homo sapiens with 12 samples.

Results

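The genes described here are NOS1, EYS, GRIN2B, CELF2, DCLK1, VSNL1 and PAX6. They are 7 genes with neural or retinal roles among the strongly changed transcripts of an RNA-seq study of HCT116, an established colorectal carcinoma line, out of 15074 genes in the authors' deposited tables. They were chosen from the fold changes of all 5 deposited comparisons and of a difference derived from them, with no stated size threshold. Their values are therefore given as a description, without a test. A working name for the set, neuronal genes expressed in knockout-derived lines, held for 2 of them: NOS1 and EYS were near the floor of the tables in parental cells and higher in the other lines, whereas GRIN2B, CELF2, DCLK1, VSNL1 and PAX6 had their highest level in parental cells.

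The 12 libraries fall into 4 groups of 3. Parental cells are unmodified HCT116, and AGO2_KO cells (called knockout) lack AGO2, the Argonaute protein that small RNAs guide to messenger RNAs to be silenced. FH-AGO2_WT (FH-WT) and FH-AGO2_5xA (FH-5xA) cells are knockout cells given back AGO2 with an epitope tag, either wild type or with a cluster of phosphorylation sites replaced by alanine, so all but the parental group share the knockout background. Each group is 1 line, with 3 biological replicates grown in wells seeded at 500000 cells and collected after 48 h. Whether replicates were grown on separate days is not stated in the labels, so an error measures the spread between these samples and not between independently made lines. The question was how transcripts differ between the wild-type and mutant FH lines, and the parental and knockout cells were the controls. AGO2 mRNA changed by -0.35 ± 0.07 (log2, SE) from parental to knockout in the authors' deposited table, and by 0.75 ± 0.07 from knockout to FH-WT and 0.73 ± 0.07 from knockout to FH-5xA; an mRNA level does not measure the protein.

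The genes belong to different parts of neural biology. Neurons signal through glutamate: GRIN2B encodes the GluN2B subunit of the NMDA receptor, a calcium-permeable glutamate receptor of the synapse. NOS1 is neuronal nitric oxide synthase, which calcium and calmodulin switch on next to that receptor. VSNL1 encodes visinin-like protein 1, a calcium sensor of neurons, and DCLK1 a doublecortin-family kinase that binds microtubules and is also known as a marker of tuft cells in the gut. CELF2 is an RNA-binding protein that controls splicing and mRNA stability, and PAX6 a transcription factor that directs the development of eye, brain and pancreatic islets. EYS is an extracellular protein of photoreceptors, mutated in inherited retinal degeneration.

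The start sites of NOS1, EYS and GRIN2B are shown because the first pair had the lowest parental levels and GRIN2B the highest parental level in CPM of the 7 genes. Each line is a RefSeq window on GRCh38.p14, from 250 bases before an annotated start to 50 bases after it, written 5′ to 3′ on the gene's strand, with every CG dinucleotide in capitals.
NOS1 start, chr12:117309361-117309660, minus strand: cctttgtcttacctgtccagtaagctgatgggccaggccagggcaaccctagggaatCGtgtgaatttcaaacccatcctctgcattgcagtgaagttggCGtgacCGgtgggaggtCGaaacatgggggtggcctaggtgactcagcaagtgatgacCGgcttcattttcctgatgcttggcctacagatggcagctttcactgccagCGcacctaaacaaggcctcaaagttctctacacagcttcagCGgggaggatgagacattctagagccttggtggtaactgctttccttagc
EYS start, chr6:65707177-65707476, minus strand: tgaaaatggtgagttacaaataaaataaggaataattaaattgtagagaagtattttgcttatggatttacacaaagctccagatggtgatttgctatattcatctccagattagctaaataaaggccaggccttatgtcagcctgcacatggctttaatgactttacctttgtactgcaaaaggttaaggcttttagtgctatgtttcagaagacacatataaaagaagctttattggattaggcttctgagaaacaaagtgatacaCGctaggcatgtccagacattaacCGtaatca
GRIN2B start, chr12:13981553-13981852, minus strand: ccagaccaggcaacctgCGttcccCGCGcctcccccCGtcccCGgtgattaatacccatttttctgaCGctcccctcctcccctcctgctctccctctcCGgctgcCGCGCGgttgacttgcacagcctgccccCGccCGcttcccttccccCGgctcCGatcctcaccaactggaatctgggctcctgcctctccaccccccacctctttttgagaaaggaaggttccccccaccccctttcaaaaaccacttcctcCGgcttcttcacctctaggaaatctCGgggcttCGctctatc

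CG dinucleotides are where DNA methylation occurs in human cells, and dense runs of them mark the start sites of many broadly expressed genes. The NOS1 window holds 7 and the EYS window 2, against a median of 14 over 35116 RefSeq windows of this length and 25 over the 14838 windows of genes in the tables. As few as 7 were found in 39.3% of all windows and as few as 2 in 18.2%. A further EYS window held 1. The GRIN2B window holds 17, and its other windows 22 and 36. CELF2 has 10 windows with 5 to 54, PAX6 9 windows with 5 to 32, DCLK1 3 windows with 2, 27 and 5, and VSNL1 windows with 9 and 19. The motif TATAAA, searched on both strands, was found in the EYS window above, in 1 VSNL1 window and in 1 CELF2 window, and occurs in 11.5% of all windows and 6.19% of those of measured genes. The NOS1 window lies inside the span that GENCODE 29 gives the gene, and which start these cells use was not measured. The match is a description of letters only.

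Levels are given as CPM (counts scaled to a common library size), read from the authors' deposited tables by combining each gene's mean expression with its fold changes, so each is a fitted mean of 3 libraries and no value per library enters. NOS1 (ENSG00000089250, chromosome 12, 117208142 to 117452170, minus strand, GRCh38, GENCODE 29) was at 0.0847 CPM for parental cells, 1.64 for knockout, 1.61 for FH-WT and 2.45 for FH-5xA cells. EYS (ENSG00000188107, chromosome 6, 63719980 to 65707225, minus strand) was at 0.0585, 0.890, 1.37 and 2.07 CPM in the same order. Both genes were low in parental cells and at 0.890 CPM or more in the knockout and both lines made from it.

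The parental EYS level was the lowest fitted level of any gene in that group, and 1 gene lay below NOS1. Both were chosen for large changes, and few genes that are low in all 4 groups are in the tables. Only 3.41% of genes had a lower mean over the groups than EYS, and 7.59% than NOS1. Nothing is therefore read from their place in the parental ranking. Fewer than 0.1 CPM were fitted for 3 genes in parental cells. Averaging on the log scale instead puts parental NOS1 at 0.142 and EYS at 0.104 CPM, and multiplies every level of NOS1 by 1.68, EYS by 1.77 and GRIN2B by 1.52, with ratios between groups unmoved. In the other groups fitted levels went down to 0.00621 CPM for knockout, 0.00593 for FH-WT and 0.00621 for FH-5xA cells. A fold change from a level this low depends on the prior count that a fit adds, so it is a fitted value and no bound, and the library counts behind it were not analysed here.

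From parental to knockout NOS1 rose by 4.27 ± 0.43 (log2, SE; 95% interval 3.44 to 5.11) and EYS by 3.93 ± 0.50 (2.96 to 4.90) in the authors' deposited table. Against parental cells, NOS1 was 4.24 ± 0.45 higher in FH-WT cells and 4.86 ± 0.40 higher in FH-5xA cells, and EYS by 4.55 ± 0.47 and 5.15 ± 0.41. The 3 contrasts share the parental libraries, so they are not separate evidence. The lowest bound of these intervals was 2.96, within the limit of the low parental level.

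Putting AGO2 back did not return either gene to its parental level. NOS1 differed from knockout by -0.03 ± 0.26 (95% interval -0.54 to 0.49) in FH-WT and by 0.58 ± 0.23 (0.12 to 1.04) in FH-5xA cells in the authors' deposited tables. EYS differed from knockout by 0.62 ± 0.27 (0.10 to 1.15) in FH-WT and by 1.22 ± 0.23 (0.77 to 1.67) in FH-5xA cells. For both genes the order of levels ended with FH-5xA highest and parental lowest, and NOS1 in knockout and FH-WT cells did not differ beyond the error.

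**Figure D1:**
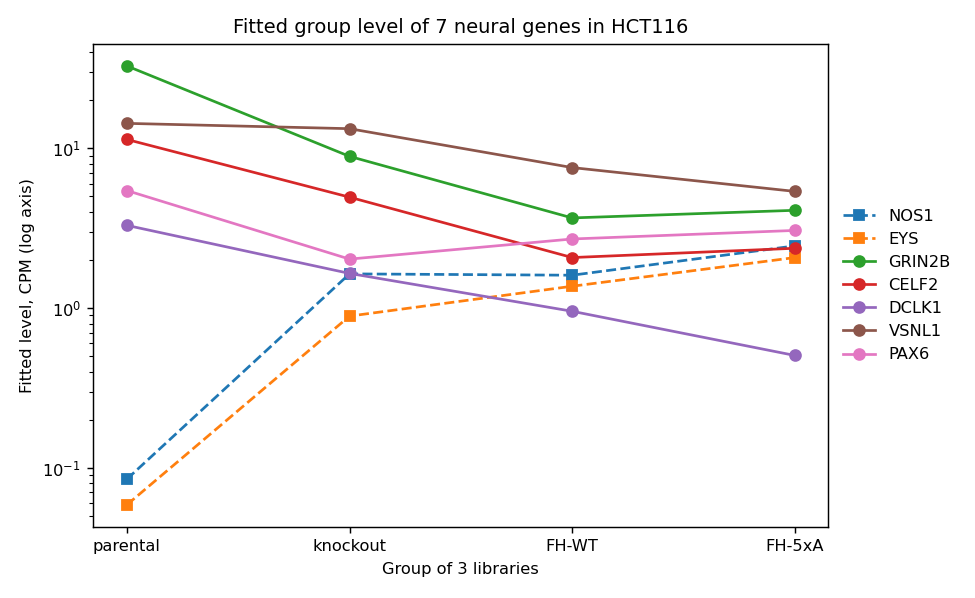
Fitted level in CPM (log axis) of the 7 genes in parental, knockout, FH-WT and FH-5xA cells; each point is the fitted mean of 3 libraries, and lines join the points of a gene and stand for no order in time. NOS1 and EYS (squares, dashed) start at 0.0847 and 0.0585 CPM in parental cells and lie between 0.890 and 2.45 CPM elsewhere, while the other genes (circles) start highest.

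GRIN2B (ENSG00000273079, chromosome 12, 13437942 to 13981957, minus strand) had the largest fall. Its level was 32.9 CPM for parental, 8.92 for knockout, 3.67 for FH-WT and 4.10 for FH-5xA cells. It changed by -1.88 ± 0.12 (log2, SE) from parental to knockout, then by -1.28 ± 0.16 from knockout to FH-WT and by -1.12 ± 0.15 from knockout to FH-5xA in the authors' deposited tables. Return of AGO2 was thus accompanied by a further fall and not by recovery, and both FH lines lay 8.03-fold to 8.96-fold below parental cells. FH-WT and FH-5xA did not differ beyond the error, with a difference of 0.16 ± 0.17.

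CELF2 (ENSG00000048740, chromosome 10, 10798397 to 11336675, plus strand) followed the same order at lower levels. It was at 11.4 CPM for parental, 4.95 for knockout, 2.07 for FH-WT and 2.37 for FH-5xA cells. The changes were -1.20 ± 0.12 from parental to knockout, -1.26 ± 0.17 from knockout to FH-WT and -1.06 ± 0.16 from knockout to FH-5xA, again in the authors' deposited tables. These steps were alike in size. Its FH lines differed by 0.19 ± 0.19.

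DCLK1 (ENSG00000133083, chromosome 13, 35768652 to 36131306, minus strand) fell at each step down to FH-5xA. It was at 3.30 CPM for parental, 1.65 for knockout, 0.955 for FH-WT and 0.505 for FH-5xA cells. In the authors' deposited tables it changed by -1.0 ± 0.18 from parental to knockout, by -0.79 ± 0.25 from knockout to FH-WT and by -1.71 ± 0.27 from knockout to FH-5xA. The derived difference of FH-5xA from FH-WT (their changes from knockout subtracted) was -0.92 ± 0.30 (95% interval -1.51 to -0.33) and did not pass a false discovery rate of 0.05 over all genes.

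VSNL1 (ENSG00000163032, chromosome 2, 17539126 to 17657018, plus strand) differed from the others in that the knockout alone left it near its parental level. It was at 14.4 CPM in parental and 13.3 in knockout cells, a change of -0.11 ± 0.10 (95% interval -0.31 to 0.09) in the authors' deposited table. It was at 7.59 CPM in FH-WT and 5.38 in FH-5xA cells, or -0.81 ± 0.12 and -1.31 ± 0.12 against knockout. Of the 7 genes it was the one whose parental and knockout levels did not differ beyond the error. The derived difference of FH-5xA from FH-WT was -0.50 ± 0.13 (-0.75 to -0.24).

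PAX6 (ENSG00000007372, chromosome 11, 31784779 to 31818062, minus strand) was lower in the knockout than in parental cells and higher again in FH-5xA cells. It was at 5.45 CPM for parental, 2.03 for knockout, 2.71 for FH-WT and 3.06 for FH-5xA cells. From parental to knockout it changed by -1.43 ± 0.20, and from knockout it differed by 0.42 ± 0.22 (95% interval -0.02 to 0.86) for FH-WT and 0.60 ± 0.21 (0.18 to 1.01) for FH-5xA cells in the authors' deposited tables. The FH lines remained below parental cells, at -1.01 ± 0.20 and -0.83 ± 0.19.

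**Figure D2:**
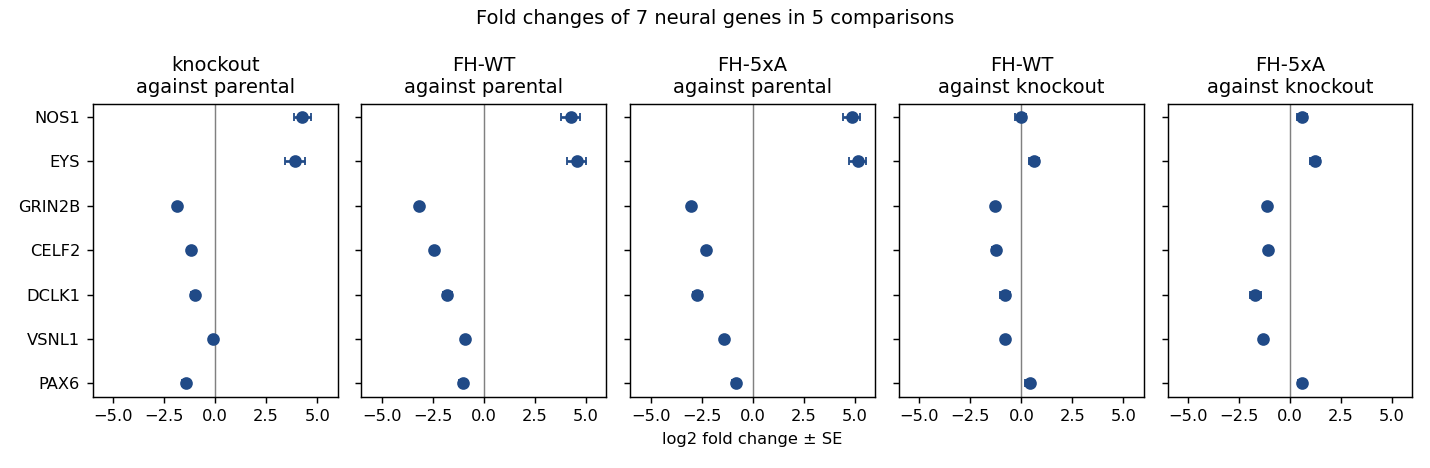
log2 fold changes of the 7 genes (rows) in the authors' 5 deposited comparisons (panels), with bars of ± 1 SE derived from the deposited score; 3 libraries per group. NOS1 and EYS lie at 3.93 or above in the 3 panels against parental cells, and the other 5 genes lie below 0 there.

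Against parental cells the 5 falling genes and the 2 rising ones kept their sides in all 3 lines. From parental to knockout, 2 of the 7 genes were called higher and 4 lower at a false discovery rate under 0.05, where 44.4% of all genes were called, 23.2% higher and 21.2% lower. FH-WT against parental called 2 higher and 5 lower beside 34.4% of all genes (18.3% higher, 16.1% lower), and FH-5xA against parental 2 higher and 5 lower beside 43.8% (22.9% and 20.9%). FH-WT against knockout called 0 higher and 4 lower (GRIN2B, CELF2, DCLK1 and VSNL1) beside 10.1% of all genes (4.21% higher, 5.85% lower). FH-5xA against knockout called 2 higher (EYS and PAX6) and 4 lower (the same 4 names) beside 11.3% (5.04% and 6.24%). These tables chose the genes, so nothing is read from the counts. The comparisons with knockout share the knockout libraries, and those with parental cells the parental ones.

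The medians of the 7 log2 fold changes were -1.0 from parental to knockout, -0.79 from knockout to FH-WT and -1.06 from knockout to FH-5xA, while those of all genes were -0.01, 0.01 and 0.01. The range was wide, from -1.88 to 4.27 in the first of these, and 6 of the 7 genes changed at least 2-fold there. The 7 genes were picked as strongly changed in these comparisons. Nothing is therefore read from their medians beside those of all genes, or from the 2-fold count.

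No table compared the FH lines directly. Their difference was obtained by subtracting the FH-WT change from the FH-5xA change, both taken from knockout, with an error solved from the SEs of the 5 tables. It was 0.61 ± 0.25 for NOS1, -0.92 ± 0.30 for DCLK1 and -0.50 ± 0.13 for VSNL1, and 0.16 to 0.19 for GRIN2B, CELF2 and PAX6. At a false discovery rate under 0.05 over 15072 genes, VSNL1 was called lower and EYS higher, where 4.11% of all genes were called, 1.98% higher and 2.13% lower. The EYS call is unreliable: its difference was 0.60, but the solved variance of its FH-5xA group came out negative, as in 17 genes in all. With the plain sum of both squared SEs its interval ran from -0.10 to 1.29, and 0 of the 7 genes were called. The plain sum counts the knockout libraries in both terms and so gives wider intervals. With it the DCLK1 interval was -1.65 to -0.19 and the VSNL1 interval -0.83 to -0.17.

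Between genes, levels can be compared per kilobase of annotated exon. In parental cells VSNL1 was highest at 3.75 CPM per kb, followed by GRIN2B at 1.06, CELF2 at 1.04, PAX6 at 0.262 and DCLK1 at 0.229 CPM per kb. NOS1 stood at 0.00646 and EYS at 0.00343 CPM per kb. In FH-5xA cells VSNL1 remained highest at 1.4 CPM per kb, followed by CELF2 at 0.216, NOS1 at 0.187, PAX6 at 0.147, GRIN2B at 0.132, EYS at 0.121 and DCLK1 at 0.0351 CPM per kb. This order depends on the averaging. In FH-5xA cells, averaging on the log scale puts NOS1 above CELF2, EYS above GRIN2B, and both EYS and GRIN2B above PAX6. VSNL1 stays highest and DCLK1 lowest there. In parental cells it puts DCLK1 above PAX6. The lengths are unions over all annotated isoforms and reach 30941 bases for GRIN2B, so a gene that uses few of its exons is understated.

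The patterns of the 7 genes over the 4 groups were compared as the Euclidean distance between their log2 levels, each centred on its own mean. NOS1 and EYS lay 0.53 apart, GRIN2B and CELF2 0.62, CELF2 and DCLK1 0.80, and DCLK1 and VSNL1 0.94. NOS1 lay 6.31 and EYS 6.50 from GRIN2B, the largest distances among the 7. The distances rest on 4 fitted values per gene and carry no error.

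Among 13787 genes with a mean of at least 0 (log2 CPM), the nearest to NOS1 were LAMA4, a laminin chain, at 0.78 and NRP1, the neuropilin-1 receptor, at 1.02. NRP1 was at 5.80 CPM in parental and 255 in knockout cells. The nearest to EYS were SCAT8, at 0.81, and LAMA4, at 0.89. LAMA4 was at 1.27 CPM for parental, 12.6 for knockout, 16.5 for FH-WT and 19.3 for FH-5xA cells. Its parental level was itself low, though above the lowest fitted parental level of 0.0585 CPM.

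GRIN2B was nearest to MAL2, a membrane trafficking protein of epithelia, at 0.35, and to CEMIP, a hyaluronan-binding protein, at 0.48. CELF2 was nearest to SLC40A1, the iron exporter ferroportin, at 0.22, and to LINC00960 at 0.37. MAL2 was at 352 CPM for parental, 89.9 for knockout, 44.2 for FH-WT and 56.8 for FH-5xA cells, so the GRIN2B pattern was also seen at a much higher level. DCLK1 was nearest to ANGPT2 at 0.60 and to SLC40A1 at 0.66, and RNVU1-29 lay at 0.37 from VSNL1. PAX6 was nearest to POLD2P1 at 0.14 and ELFN1 at 0.16. These names show likeness of pattern over 4 groups and no more.

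The chromosomal surroundings of the genes were read next, with the 3 nearest measured genes on either side of each. Of these 42 neighbours, 12 were called higher and 11 lower from parental to knockout, beside 23.2% and 21.2% of all genes, and 3 changed at least 2-fold. One of these was SCAT8, an antisense transcript on the opposite strand inside EYS (chromosome 6, 63806836 to 63822642), which differed by 4.66 ± 0.30 from parental to knockout, by 1.02 ± 0.19 from knockout to FH-WT and by 1.10 from knockout to FH-5xA in the authors' deposited tables. SCAT8 shares 0 of its 1454 exonic bases with EYS exons. ENSG00000266680, on the same side of EYS, differed by 1.97 ± 0.16. PHF3, which lies between them and shares 175 exonic bases with EYS, differed by 0.17 ± 0.09, so the rise at this stretch of chromosome 6 did not extend to every gene in it.

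SFTA1P, a noncoding gene 3.42 kb from CELF2, fell by 1.60 ± 0.23 (log2, SE) with CELF2 in the knockout, while USP6NL on the other side differed by 0.14. KSR2, whose 3′ end lies 0.842 kb from the NOS1 span, differed by 0.44 ± 0.15 from parental to knockout. Against knockout KSR2 stood at 0.01 ± 0.16 (FH-WT) and 0.59 ± 0.15 (FH-5xA), where NOS1 stood at -0.03 and 0.58. The KSR2 rise to FH-5xA was called and that of NOS1 was not. Among the other NOS1 neighbours, TESC (0.73 ± 0.12) and WSB2 (0.73 ± 0.10) rose from parental to knockout and RFC5 (-0.74 ± 0.07) fell. FBXW8 and FBXO21 were not called there. Whether KSR2 and NOS1 changed together for a shared reason was not tested. From parental to knockout EMP1, beside GRIN2B, differed by 0.89 ± 0.09 and NBEA, beside DCLK1, by 0.81 ± 0.10. That was opposite in direction to GRIN2B and DCLK1. From knockout to FH-WT, however, EMP1 (-0.69 ± 0.09) and NBEA (-0.31 ± 0.10) fell, as did GRIN2B and DCLK1. From knockout to FH-5xA they differed by -0.29 ± 0.09 and -0.17 ± 0.10, the latter not called. On the other sides ATF7IP (-0.07) and RFXAP (0.34) were not called from knockout to FH-WT. Around VSNL1, CYRIA differed by -0.81 ± 0.24 and SMC6 by -0.18 from parental to knockout. The neighbours of NOS1, GRIN2B, DCLK1, VSNL1 and PAX6 changed less than 2-fold from parental to knockout. From parental to FH-5xA, KSR2 (1.03 ± 0.15) and KCNS3, near VSNL1 (-1.23 ± 0.14), changed at least 2-fold. KCNS3 also did so from parental to FH-WT (-1.09 ± 0.15).

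ELP4, next to PAX6 on the opposite strand, shares 5241 exonic bases with it and differed by -0.14 ± 0.09. The libraries are stranded by kit, but no source used here says whether counting used the strand, so PAX6 reads in that overlap cannot be told apart from those of ELP4, which had a mean of 33.2 CPM. PAX6 values are uncertain to that extent.

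**Figure D3:**
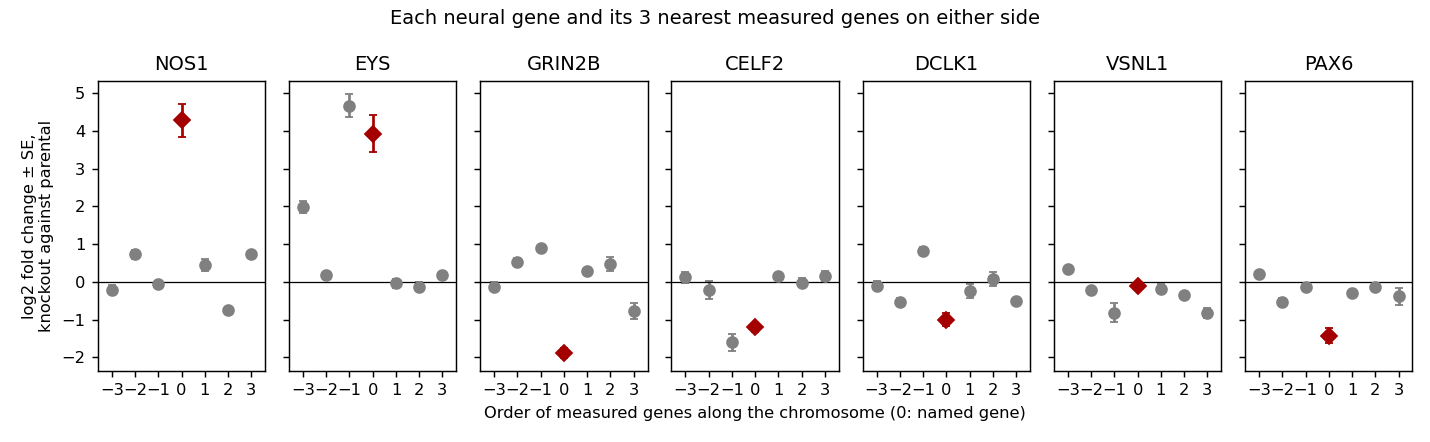
log2 fold change from parental to knockout (± SE) of each of the 7 genes (red diamond, position 0) and its 3 nearest measured genes on either side (grey circles), in order along the chromosome. EYS has a neighbour at 4.66, SCAT8, whereas the neighbours of NOS1 lie within 1 of 0.

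Since the lines differ in AGO2, matches to microRNA seeds in the 3′ untranslated regions (UTRs) were read for 12 families, chosen as textbook families after the tables had been seen. A seed is bases 2 to 8 of the microRNA, in capitals in the RefSeq sequences below. The 4 families shown are those with 8-base matches in VSNL1 and the most 7-base matches in GRIN2B and DCLK1, genes that fell from knockout to both FH lines, and every 8-base match to them in the 7 genes is printed. Site lines give 30 bases of GENCODE 29 transcript with the 8-base match in capitals and the position of those 8 bases on GRCh38.
hsa-miR-17-5p: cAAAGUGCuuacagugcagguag
hsa-miR-16-5p: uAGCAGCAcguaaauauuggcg
hsa-miR-21-5p: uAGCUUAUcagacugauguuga
hsa-miR-29a-3p: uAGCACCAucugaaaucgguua
GRIN2B site for miR-17-5p, chr12:13553404-13553411, minus strand: gttgaggtaattgaGCACTTTAcctcttat
GRIN2B site for miR-17-5p, chr12:13539704-13539711, minus strand: gttaaaggaatagaGCACTTTAtcctttag
GRIN2B site for miR-16-5p, chr12:13557007-13557014, minus strand: aaattgaaagccagTGCTGCTActttcatg
DCLK1 site for miR-16-5p, chr13:35774326-35774333, minus strand: tgaagatggtaattTGCTGCTAatagagtc
DCLK1 site for miR-16-5p, chr13:35773784-35773791, minus strand: gcttccatatcagcTGCTGCTAgcgccagc
NOS1 site for miR-16-5p, chr12:117208341-117208348, minus strand: ctctgagctctcaaTGCTGCTAatctctgc
VSNL1 site for miR-21-5p, chr2:17655796-17655803, plus strand: aatgtaacttaattATAAGCTAtgtcacta
VSNL1 site for miR-29a-3p, chr2:17656443-17656450, plus strand: tctcagtgtgacttTGGTGCTAacaacgta

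The GRIN2B UTR is 25446 bases long, longer than 99.97% of the 11742 UTRs read, and the median UTR was 1417.5 bases. It holds 4 matches of 7 bases for miR-17 and 4 for miR-16, with at least 1 of each in 100% of the 8 UTRs of like length. DCLK1, with 5990 bases, holds 3 for miR-16, where 54.5% of 919 UTRs of like length hold any. VSNL1, with 1624 bases, holds 1 for miR-21, as do 8.11% of 2158 UTRs of like length, and 1 for miR-29, as do 14.8%. CELF2 (6264 bases), which also fell from knockout to both FH lines, holds 0 matches of 8 bases for all 12 families. It holds 1 match of 7 bases for each of miR-200c, miR-200a, miR-29a, miR-34a and miR-7. Of 843 UTRs of like length, 36.4% to 56.6% hold a 7-base match to each of these. NOS1 (7167 bases) holds 8-base matches for miR-16 and miR-34, and PAX6 (5155 bases) for miR-19, miR-200c and miR-34, and neither was called lower from knockout to an FH line. Sites were thus present in genes that fell and in genes that did not. The EYS UTR read here, 3052 bases of a short isoform, holds 0 for all 12 families. MicroRNA levels and binding were not measured in these files, so a match says that the letters are there and nothing about silencing.

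Other genes of the same pathways were read beside the 7. Of 195 further genes in 12 neural, retinal and endocrine lists, 96 were in the tables. From parental to knockout 40 of these 96 were called, 26 higher and 14 lower, or 41.7% beside 44.4% of all genes. From knockout to FH-WT 10 were called (10.4% beside 10.1%) and from knockout to FH-5xA 15 (15.6% beside 11.3%). Median changes were 0.08, -0.01 and 0.00 on the log2 scale. At least 2-fold changes from parental to knockout were found in 7 of the 96, namely ARG2, DLGAP1, FSCN2, GRIN2C, L1CAM, PDE5A and SNAP25.

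Of the NMDA receptor partners of GRIN2B, 2 were called higher and 1 lower from parental to knockout, beside 23.2% and 21.2% of all genes. GRIN2C, another GluN2 subunit, rose by 1.58 ± 0.17 (log2, SE) from parental to knockout and by 0.69 ± 0.13 from knockout to FH-5xA in the authors' deposited tables. GRIN2D rose by 0.99 ± 0.24 and GRIN1, the obligatory subunit, fell by 0.60 ± 0.23 from parental to knockout, and GRIN1 rose by 0.73 ± 0.23 from knockout to FH-5xA. The 3 measured partners of 6 listed had a median of 0.99 from parental to knockout. Of 9 AMPA and kainate receptor subunits only GRIK4 was in the tables. Of 13 measured postsynaptic scaffold genes 4 were called higher and 3 lower from parental to knockout, beside the same shares of all genes. SHANK2 was at 0.77 ± 0.14 and CAMK2D at 0.73 ± 0.07.

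Around NOS1, 18 nitric oxide and cyclic GMP genes were measured. From parental to knockout 1 was called higher and 3 lower, beside 44.4% of all genes, and their median was -0.03 beside -0.01 over all genes. PDE5A, which breaks down cyclic GMP, fell by 1.26 ± 0.16, and ARG2, which competes with nitric oxide synthases for arginine, fell by 1.08 ± 0.13. NOS3, the endothelial enzyme, differed by 0.20 and was not called, and NOS2 was not in the tables.

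Of 14 measured RNA-binding genes listed with CELF2, 4 were called higher and 1 lower from parental to knockout, beside 23.2% and 21.2% of all genes. MBNL3 rose by 0.76 ± 0.10 and QKI by 0.62 ± 0.10, while CELF1 (0.16 ± 0.07) and CELF5 (-0.35 ± 0.23) were not called. MSI1, a neural stem cell RNA-binding protein, rose from knockout to FH-WT by 0.46 ± 0.14 and to FH-5xA by 0.79 ± 0.13. Of 12 measured doublecortin-family and microtubule-binding genes, 5 were called higher and 1 lower from parental to knockout, beside the same shares of all genes. MAP1B rose by 0.74 ± 0.13 and MAP4 by 0.61 ± 0.10, STMN1 fell by 0.58 ± 0.08, and DCLK2 (-0.26 ± 0.17) was not called. MAP2 fell from knockout to FH-WT by 0.77 ± 0.12 and to FH-5xA by 0.72 ± 0.11.

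Of 6 measured calcium sensors related to VSNL1, HPCAL1 rose by 0.77 ± 0.16 from parental to knockout and none of the other 5 was called there. In that comparison 44.4% of all genes were called. PAX2 rose by 0.85 ± 0.20 from parental to knockout, 0.61 ± 0.17 from knockout to FH-WT and 0.89 ± 0.15 from knockout to FH-5xA, and its 2 measured relatives, PAX8 and PAX9, were not called. Of 8 measured eye field and PAX6 partner genes 2 were called lower from parental to knockout and none higher, beside 21.2% and 23.2% of all genes. Of 11 measured photoreceptor and retinal disease genes, 4 were called higher and 2 lower from parental to knockout, beside 23.2% and 21.2% of all genes. FSCN2, a photoreceptor actin-bundling protein, was at 1.11 ± 0.36 and PROM1 at -0.44 ± 0.08. The FSCN2 levels were low, at 0.40 CPM for parental and 0.86 for knockout cells. FSCN2 was not called from parental to FH-WT (0.61 ± 0.41). Rhodopsin and CRX, markers of photoreceptors, were not among the measured genes. Neither was PRPF8, a core splicing factor of every cell, so a gene missing from the tables is not thereby shown to be silent.

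Cell identity markers were read beside these values. Only 7 of 20 neuron markers were in the tables, and RBFOX3, SYN1, NEFL, STMN2, GAP43, DCX and ELAVL4 were not among them. Of the 7 measured, 3 were called higher and 1 lower from parental to knockout, beside 23.2% and 21.2% of all genes. In that comparison L1CAM rose by 1.45 ± 0.17, SNAP25 by 1.11 ± 0.25 and ENO2 by 0.26 ± 0.11, and SYT1 fell by 0.33 ± 0.07. MAP2, TUBB3 and SYP were not called. Enteroendocrine markers were represented by 2 of 12 genes, glia by 2 of 9, and fibroblasts, blood and endothelium by 1 of 14. Of these, SCG2 rose by 0.34 ± 0.10, MBP by 0.28 ± 0.08 and COL1A1 by 0.59 ± 0.23 from parental to knockout, and ISL1 (0.11 ± 0.33) was not called. COL1A1 also rose by 0.85 ± 0.22 from knockout to FH-5xA. Colon epithelium markers were represented by 6 of 10. Of these, 3 were called lower from parental to knockout and 0 higher, beside 21.2% and 23.2% of all genes. The 3 were CDH1 at -0.97, EPCAM at -0.58 and KRT18 at -0.46. KRT8 (-0.36 ± 0.16), CDX2 (-0.04 ± 0.11) and KRT19 (0.12 ± 0.14) were not called, so the fall was not shared by all measured colon markers. In bulk RNA, fewer expressing cells and less RNA per cell cannot be told apart, and the part of cell composition in the changes of the 7 genes was not tested.

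REST, the repressor that keeps neuronal genes silent outside neurons, was at 164 CPM for parental, 176 for knockout, 168 for FH-WT and 166 for FH-5xA cells and was not called in any deposited comparison. Among the measured genes of its complex, RCOR1 rose by 0.39 ± 0.09 and CTDSPL by 0.34 ± 0.07 from parental to knockout, and KDM1A was called lower at -0.25.

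**Figure D4:**
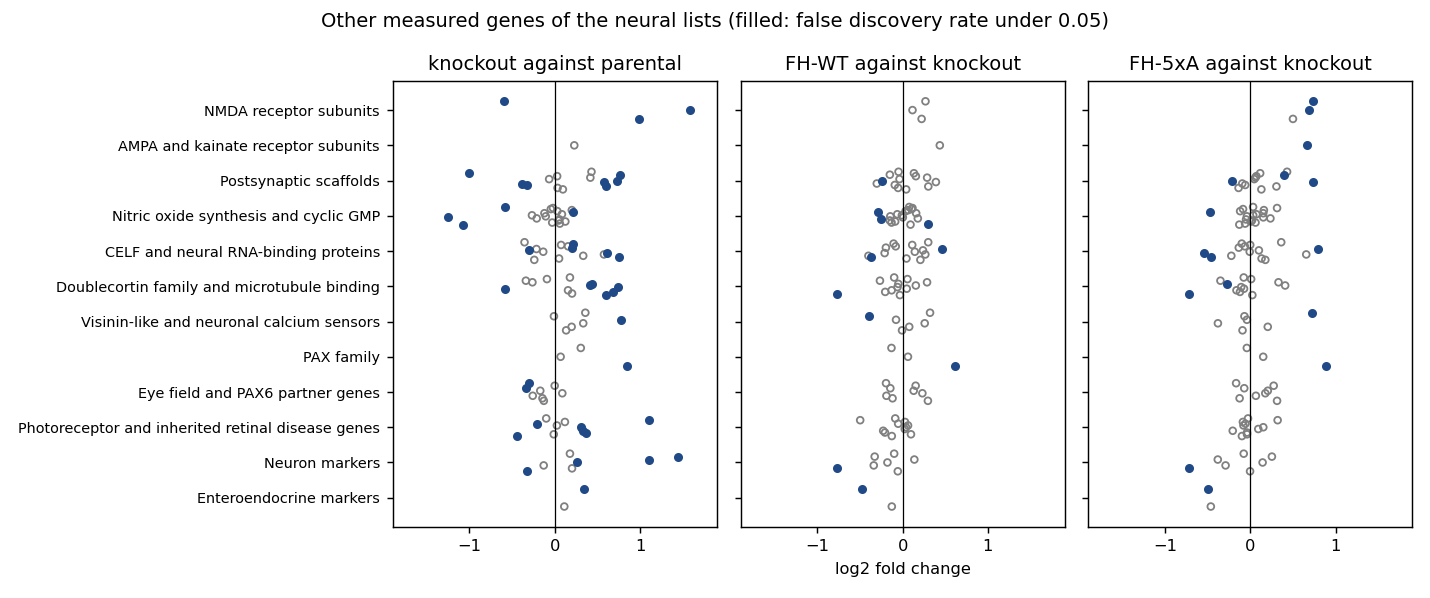
log2 fold changes of the 96 other measured genes of the 12 neural, retinal and endocrine lists (rows) in 3 comparisons (panels); filled points are at a false discovery rate under 0.05. From parental to knockout 26 of the 96 were called higher and 14 lower, beside 23.2% and 21.2% of all genes. GRIN2C was highest there at 1.58 and PDE5A lowest at -1.26.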

How the data were processed

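The libraries were prepared from total RNA after ribosomal RNA removal and sequenced on an Illumina NextSeq instrument, per the labels' protocols. The submitters' processing notes name edgeR 3.8.6, featureCounts 1.4.6, TopHat2 2.0.12 and Cufflinks 2.2.1 and the GRCh38 (hg38) build; the sources used here name no annotation, low-count filter, normalization or use of strand. Each of the 5 deposited tables holds, per the file headers, a log2 fold change and a mean log2 CPM, a likelihood ratio score, and a p-value with its false discovery rate by the authors. Counts per library were not analysed here, so depth is unknown and the count tests first planned gave way to the deposited tests. The deposited p-value equalled the chi-square tail (1 degree of freedom) at the score to within 7.33e-15.

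An SE was taken as the absolute log2 fold change divided by the square root of the score. Group levels were set so that the mean of the 4 linear levels equals the deposited mean. The FH-5xA minus FH-WT difference used group variances solved by least squares from the 5 squared SEs, a chi-square test and Benjamini-Hochberg adjustment over 15072 genes. The procedure was tested on simulated data. The simulated scores were built from the known group variances, so that test could not produce a negative solved variance such as that of EYS. Python 3.11.15, pandas 2.3.3, NumPy 2.4.6 and SciPy 1.17.1 were used. Symbols were found for 14974 identifiers and GENCODE 29 entries for 15029; RefSeq gave promoters and microRNAs.

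The 7 genes and all lists were chosen with earlier results of these data known. The named genes were the 7; measured genes of lists with up to 12 measured, otherwise the 4 with the smallest p; 2 nearest patterns; and 3 neighbours on each side. REST, NOS3, NOS2, CELF1, CELF5 and KDM1A fall outside this rule and were named after their values were seen. Some genes that the rule names are not reported here. Alternatives were a stricter threshold, Holm adjustment, an expression minimum, leaving out chromosome 7, recentring, log-scale averaging and the plain sum of squared SEs.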

Additional observations from a re-analysis of the deposited data

Results flagged for a closer look

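In 5 of the 96 other neural list genes the changes of the 2 FH lines from the knockout differed by the chi-square test on the derived difference (Benjamini-Hochberg over all genes). That is 5.21% of these genes beside 4.11% of all genes, a share near the background. GRIN2C was higher in FH-5xA cells by 0.57 ± 0.14 (log2, SE; adjusted p = 0.007), SHANK2 by 0.55 ± 0.15 (0.012) and L1CAM by 0.58 ± 0.16 (0.015). DYNLL1, a dynein light chain that binds NOS1, was at -0.36 ± 0.09 (0.008) and QKI at -0.33 ± 0.10 (0.043). With the plain sum of squared SEs, 0 of the 96 were called and 6 had an unadjusted p under 0.05, against 18 with the solved variance. Over all genes the plain sum called 13. The depth behind these values is unknown.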

How the results depend on the processing

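Recentring on the median of all genes moved the 42 fold changes of the 7 genes by at most 0.014 and turned no direction; the other alternatives concern counts of calls or levels. For the 7 genes, the count called between FH-5xA and FH-WT was 2; it was 1 at a false discovery rate under 0.01, 1 with Holm adjustment, 0 with the plain sum of squared SEs and 1 without genes of a negative solved variance. The last, and the plain sum for these genes, were chosen after seeing the data. For the other neural list genes, Holm adjustment left 18 of 40 from parental to knockout, 1 of 10 from knockout to FH-WT, 7 of 15 from knockout to FH-5xA, 16 of 41 from parental to FH-WT, 20 of 42 from parental to FH-5xA and 0 of 5 between the FH lines. A false discovery rate under 0.01 left 3 of 10 from knockout to FH-WT and 2 of 5 between the FH lines, and the plain sum left 0 of 5. Leaving out chromosome 7, or genes under a mean log2 CPM of 0, kept every such count within 1.5 times. Averaging levels on the log scale multiplied the levels of NOS1 by 1.68, EYS by 1.77 and GRIN2B by 1.52, in all groups alike.

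No paired analysis was possible because the tables hold no values per library. For the same reason leaving out each library, another normalization and another filter on low counts were not run.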
